A study of Mus musculus with 20 samples.

Results

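The insulin-like growth factor (IGF) system of the ovarian follicle was followed here through 10 genes of 39253 in the deposited count table. They were taken by symbol: the ligands Igf1 and Igf2, the receptors Igf1r and Igf2r, the binding proteins Igfbp2, Igfbp3, Igfbp4, Igfbp5 and Igfbp7, and the protease gene Pappa. All 10 passed the filter on low counts, which left 17810 genes for testing.

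Iodoacetic acid (IAA) is a by-product of drinking water disinfection. The animals were females of the outbred CD-1 stock that drank IAA at 10 mg/L (5 mice), IAA at 500 mg/L (5 mice) or water without IAA (10 control mice) for 35 days, starting at 40 days of age. At 75 days, in diestrus, 30 to 40 antral follicles of 220 to 400 µm were dissected from each mouse, so that each of the 20 libraries is 1 animal. The doses were given in separate experiments a month apart: experiment 2 held the mice at 10 mg/L with control replicates 1 to 5, and experiment 1 held the mice at 500 mg/L with control replicates 6 to 10.

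In the follicle, IGF ligands bind the receptor tyrosine kinase IGF1R, which signals through PI3K-AKT and RAS-MAPK and, in rodent granulosa cells, adds to the action of follicle-stimulating hormone. IGF2R takes up IGF2 and carries it to the lysosome without such a signal. Binding proteins hold the ligands away from the receptor, and the protease PAPP-A (Pappa) frees ligand by cutting some of them, IGFBP4 above all.

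Each library held between 39.9 M and 67.5 M estimated counts (M for mega), with the most in IAA 500 mg/L replicate 2. Levels are given in CPM, the count per M of the library total after scaling by trimmed means (TMM). Granulosa markers summed to 6348 to 13549 CPM at 10 mg/L, to 6987 to 13336 CPM at 500 mg/L and to 7932 to 12175 CPM in controls. Markers of other cells were present in every group: those of stroma summed to 974 to 2402 CPM at 10 mg/L, to 815 to 2130 CPM at 500 mg/L and to 925 to 2362 CPM in controls. Endothelial markers summed to 387 to 563 CPM at 10 mg/L, to 324 to 496 CPM at 500 mg/L and to 312 to 499 CPM in controls. For theca the sums were 1080 to 1631 CPM at 10 mg/L, 1061 to 2153 CPM at 500 mg/L and 880 to 2336 CPM in controls. Luteal markers spanned a wide range, 673 to 3173 CPM at 10 mg/L, 606 to 1345 CPM at 500 mg/L and 409 to 3745 CPM in controls. Leukocyte markers were scarce, at 25.2 to 72.2 CPM at 10 mg/L, 26.1 to 65.8 CPM at 500 mg/L and 26.8 to 110 CPM in controls. No marker on any of the 10 cell type lists was at 0 in all mice. In such whole-follicle RNA, fewer cells of a type and less RNA per cell cannot be told apart.

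Set per kilobase of exon, Igfbp7 was the most abundant of the 10 transcripts, with a median over the 20 mice of 323 CPM per kb. Its product binds IGFs weakly compared with the classical binding proteins. Igfbp5 and Igfbp4 followed at 45.5 and 38.1 CPM per kb. Igfbp2 at 27.9, Igf1r at 25.6, Igf1 at 24.5 and Igf2r at 20.4 CPM per kb lay close together. Igfbp2 exceeded Igf1r in 13 of 20 mice and Igf1r exceeded Igf1 in 11 of 20, so the order among these 3 was not beyond the spread between mice. With the length of the longest transcript in place of all exons, Igf1 moved up to rank 4 at 34.4 CPM per kb. Igfbp3 stood far lower at 4.38 CPM per kb, below Igf2r in every mouse. Igf2 at 0.846 and Pappa at 0.501 CPM per kb were the least abundant, and Igf2 was above Pappa in 16 of 20 mice. Of the ligand transcripts Igf1 was the more abundant in every mouse, at 16.6 CPM per kb or more, against 1.73 CPM per kb or less for Igf2.

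**Figure D1:**
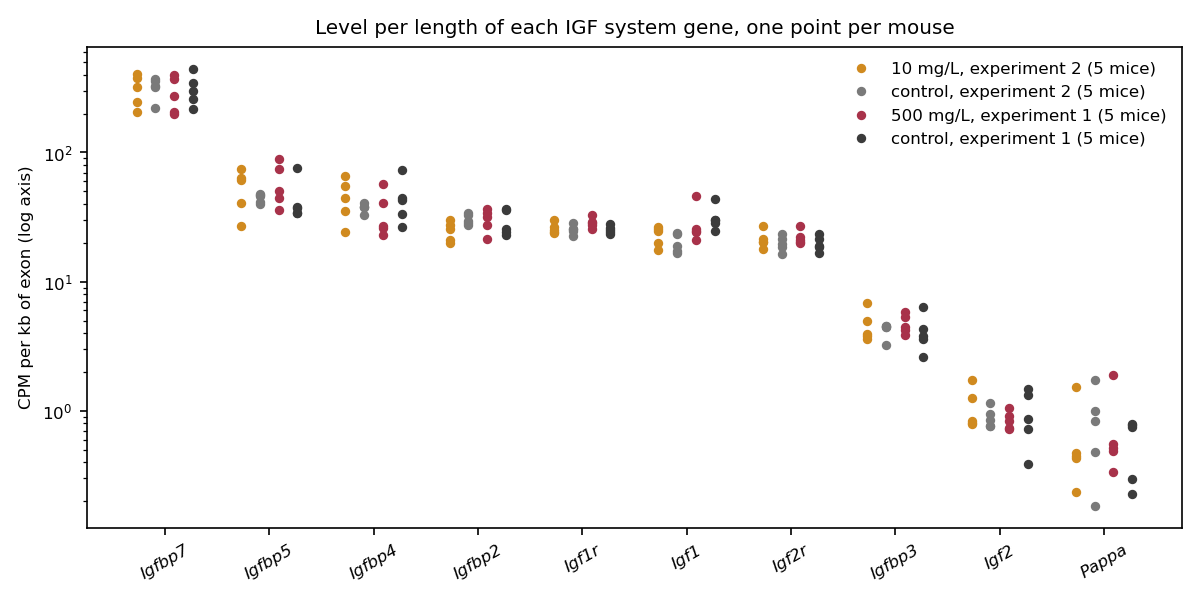
CPM per kb of exon (log axis) of each of the 10 genes, one point per mouse, with 5 mice in each of the 4 sets. Igfbp7 lies above the others in all 20 mice, and Igf2 and Pappa lie lowest, with medians of 0.846 and 0.501 CPM per kb.

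Neither dose of IAA gave a change in any of the 10 genes that passed the test (edgeR quasi-likelihood, Benjamini-Hochberg adjusted p under 0.05). The mice at 10 mg/L, set against controls of experiment 2, gave 0 of 10 calls, where 0% of all tested genes were called. The mice at 500 mg/L, set against controls of experiment 1, also gave 0 of 10, again beside 0% of all tested genes. With either dose set against water and experiment as a term, 0 of 10 were called, beside 0.0112% of all tested genes. At an unadjusted p under 0.05 these 3 comparisons held 0, 1 (Igf1r) and 0 of the 10, beside 6.45%, 5.19% and 6.81% of the tested genes. DESeq2 and limma-voom also called 0 of the 10 in each of the 3, while over all genes DESeq2 called 0.137%, 0.0171% and 0.0857% and limma-voom 0%, 0% and 0.00561%. No gene of the 10 had exposed mice all above or all below the controls of their own experiment, where 1.04% of tested genes did at 10 mg/L and 0.932% at 500 mg/L. The median log2 change of the 10 genes was 0.11 at 10 mg/L, 0.11 at 500 mg/L and 0.03 for either dose, beside 0.00022, 0.0018 and 0.0029 over all tested genes.

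**Figure D2:**
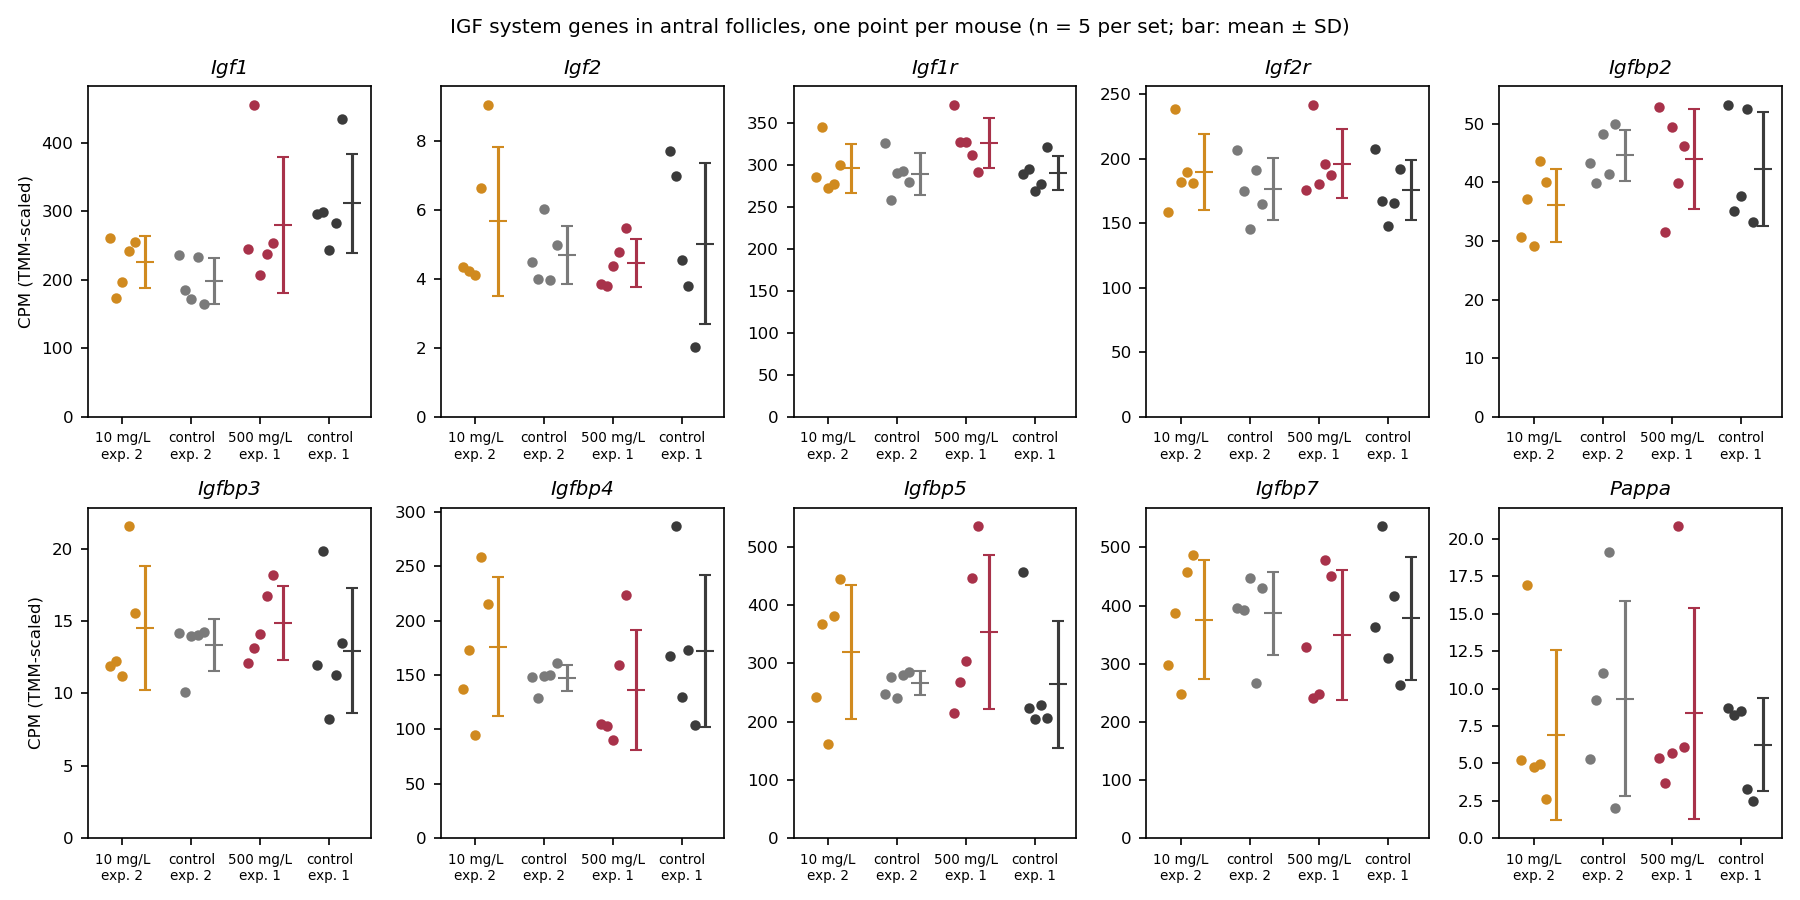
CPM of each gene in every mouse, by dose and experiment, with the mean and SD of the 5 mice beside the points and each axis starting at 0. The sets overlap for every gene at both doses, and Igf1 in controls of experiment 1 (243 to 435 CPM) lies above controls of experiment 2 (165 to 236 CPM).

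Igf1, the ligand that rodent granulosa cells make, had 261, 174, 197, 242 and 255 CPM at 10 mg/L, against 236, 186, 172, 233 and 165 CPM in the controls of experiment 2. It had 246, 455, 208, 238 and 254 CPM at 500 mg/L, against 296, 299.6, 243, 283 and 435 CPM in the controls of experiment 1. Of the mice at 10 mg/L, 3 were above all their own controls, whereas 4 of the mice at 500 mg/L were below the median of theirs, and the sets overlapped at both doses. The log2 change was 0.19 (SE 0.20, edgeR adjusted p = 0.904) at 10 mg/L and -0.15 (SE 0.20, edgeR adjusted p = 0.967) at 500 mg/L. The difference between these dose effects was -0.34 (SE 0.28, edgeR adjusted p = 0.984), with a 95% interval of -0.92 to 0.24. With 1 mouse left out, the value at 500 mg/L ran from -0.40, without IAA 500 mg/L replicate 2, to -0.0056, without control replicate 10.

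The sign for Igf1 turned with the choice of controls. Against all 10 controls, as the submitters combined them, the log2 change was -0.18 (SE 0.21) at 10 mg/L and 0.14 (SE 0.21) at 500 mg/L. Without IAA 500 mg/L replicate 2, which had 455 CPM and the deepest library, the value at 500 mg/L was -0.11. The control sets themselves stood apart. Those of experiment 1 averaged 311 ± 72.7 CPM and those of experiment 2 198 ± 33.9 CPM (SD, n = 5 each), and every mouse of experiment 1 was above every mouse of experiment 2. The log2 difference was 0.65 (SE 0.20, unadjusted p = 0.0037) but did not pass adjustment (edgeR adjusted p = 0.248), and DESeq2 gave an adjusted p of 0.0776. At an unadjusted p under 0.05 it was the only 1 of the 10 genes, beside 9.78% of tested genes. Between these control sets, experiment 1 over experiment 2, the median log2 difference was 0.95 for luteal markers (5 of 6 above 0), 0.51 for leukocyte markers (7 of 7 above 0) and -0.36 for theca markers (1 of 7 above 0). It was 0.17 for pericyte and smooth muscle (7 of 7 above 0), -0.27 for oocyte (0 of 9) and -0.38 for erythroid markers (0 of 5). For granulosa, endothelial, stroma and surface epithelium markers it was 0.05, 0.03, -0.11 and 0.19. No marker was called. At an unadjusted p under 0.05, 2 luteal, 2 leukocyte, 1 endothelial and 1 pericyte and smooth muscle gene were higher. Lower were 2 theca, 1 oocyte and 1 erythroid gene, beside 5.24% of all tested genes higher and 4.54% lower. Apart from the fit with the stroma score described further below, the part of these markers in the difference of Igf1 was not tested. Igf1 was the only one of the 10 genes with no overlap between these control sets, where 3.1% of all tested genes had none. By the adjusted p, 0 of 10 were called between the control sets, beside 0.157% of all tested genes, and likewise 0 by DESeq2 and limma-voom, beside 1.13% and 0.157%.

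Igf2, which in most mouse tissues is expressed from the paternal allele, was low, between 2.02 and 9.06 CPM over the 20 mice. Its mean was 5.68 ± 2.16 CPM at 10 mg/L, against 4.70 ± 0.854 CPM in the controls of experiment 2, and 4.47 ± 0.699 CPM at 500 mg/L, against 5.02 ± 2.34 CPM in the controls of experiment 1 (SD, n = 5 each). Among the mice at 10 mg/L, 3 lay between 4.12 and 4.35 CPM and the others at 6.65 and 9.06 CPM. The log2 changes of 0.27 (SE 0.29) at 10 mg/L and -0.17 (SE 0.29) at 500 mg/L were no larger than their errors. Without IAA 10 mg/L replicate 5 the first was 0.042, and without control replicate 6 the second was 0.036.

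Igf1r, the signalling receptor, had 286, 345, 272, 278 and 300.3 CPM at 10 mg/L, against 326, 258, 291, 293 and 279 CPM in the controls of experiment 2. These sets lay on top of each other, with a log2 change of 0.03 (SE 0.08). It had 372, 328, 328, 312 and 292 CPM at 500 mg/L, against 289, 295, 268, 277 and 321 CPM in the controls of experiment 1. Here all 5 exposed mice were above the control median and 3 were above the highest control, but the sets overlapped. The log2 change at 500 mg/L was 0.17 (SE 0.08), with a 95% interval of 0.0025 to 0.34 and an unadjusted p of 0.0469 that did not pass adjustment (edgeR adjusted p = 0.957). With 1 mouse left out in turn, the unadjusted p was under 0.05 in 6 of 20 edgeR fits and ran from 0.0220 to 0.166. Against all 10 controls it was again 0.17 (SE 0.07, unadjusted p = 0.0193, edgeR adjusted p = 0.470). The difference between the dose effects was 0.14 (SE 0.11, edgeR adjusted p = 0.984).

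Igf2r, the receptor that clears IGF2 and also carries mannose 6-phosphate tagged enzymes, had 159, 239, 182, 189.9 and 181 CPM at 10 mg/L, against 207, 175, 145, 191 and 165 CPM in the controls of experiment 2. Of these exposed mice, 4 of 5 were above the control median. It had 176, 242, 181, 196 and 187 CPM at 500 mg/L, against 207, 167, 148, 166 and 192 CPM in the controls of experiment 1. There all 5 exposed mice were above the control median of 167 CPM, and 1 was above the highest control. The log2 changes were 0.10 (SE 0.12) at 10 mg/L and 0.16 (SE 0.12) at 500 mg/L, with an edgeR adjusted p of 0.911 and 0.965. For either dose the change was 0.13, with a 95% interval of -0.04 to 0.30.

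Among the binding proteins, Igfbp4 and Igfbp7 are set out first because their levels varied together between mice. Their promoters are shown with that of Igfbp5, an abundant binding protein whose level followed theirs less closely over all 20 mice. Pearson's r of Igfbp4 was 0.67 with Igfbp5 and 0.86 with Igfbp7. This held in experiment 1, at 0.53 and 0.92, but not in experiment 2, at 0.90 and 0.77. RefSeq promoter entries were found for 9 of the 10 genes; each window runs from 250 bases before to 50 bases after the gene start on build GRCm38.p6. It is printed 5′ to 3′ on the gene's strand, and capitals mark matches on either strand to any of 6 motifs. These were the GC box (GGGCGG), the box named after its letters CCAAT, the TATA box (TATAAA), the E-box (CACGTG), a nuclear receptor motif (AGGTCA) and a forkhead motif (TGTTTAC).
Igfbp4, chr11:99040994-99041293, plus strand: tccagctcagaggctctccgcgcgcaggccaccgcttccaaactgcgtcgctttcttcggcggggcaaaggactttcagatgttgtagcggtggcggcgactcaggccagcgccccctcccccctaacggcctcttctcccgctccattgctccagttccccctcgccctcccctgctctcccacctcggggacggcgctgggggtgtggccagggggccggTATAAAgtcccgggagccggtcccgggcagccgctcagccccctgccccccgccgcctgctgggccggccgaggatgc
Igfbp7, chr5:77407996-77408295, minus strand: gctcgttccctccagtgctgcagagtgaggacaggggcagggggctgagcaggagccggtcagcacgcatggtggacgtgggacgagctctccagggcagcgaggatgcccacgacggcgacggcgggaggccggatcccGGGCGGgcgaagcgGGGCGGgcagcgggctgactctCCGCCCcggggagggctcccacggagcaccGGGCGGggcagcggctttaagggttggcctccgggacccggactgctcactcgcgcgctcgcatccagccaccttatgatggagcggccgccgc
Igfbp5, chr1:72874816-72875115, minus strand: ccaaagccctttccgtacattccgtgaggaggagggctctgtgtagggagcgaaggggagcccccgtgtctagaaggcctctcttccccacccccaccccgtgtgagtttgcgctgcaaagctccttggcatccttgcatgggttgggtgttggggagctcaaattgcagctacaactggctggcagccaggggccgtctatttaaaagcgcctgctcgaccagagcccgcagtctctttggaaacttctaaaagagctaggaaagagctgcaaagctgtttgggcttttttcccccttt
The Igfbp4 window held 1 TATA box and none of the other motifs, and the Igfbp7 window held 4 GC boxes and no other. None of the 6 was in the Igfbp5 window. Over 32851 promoter windows of the same length, 35.7% held a GC box, 37.4% CCAAT, 13.6% a TATA box, 7.15% an E-box, 16.3% the nuclear receptor motif and 3.65% the forkhead motif. The GC content was 71.3% for Igfbp4, 73.3% for Igfbp7 and 56.3% for Igfbp5, beside a median of 52.7% over all windows. Igfbp4 and Igfbp7 shared no motif of the 6 in these windows.

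Igfbp4, the binding protein most closely tied to PAPP-A and in the rat to follicles that undergo atresia, had 137, 173, 95.4, 258 and 215 CPM at 10 mg/L, against 148, 129, 149, 149.8 and 161 CPM in the controls of experiment 2. It had 105, 103, 90.5, 159 and 223 CPM at 500 mg/L, against 167, 287, 130.1, 173 and 104 CPM in the controls of experiment 1. Of the mice at 10 mg/L, 3 were above and 1 below all their controls, and at 500 mg/L 4 of 5 were below the control median. The log2 change was 0.26 (SE 0.28) at 10 mg/L and -0.34 (SE 0.28) at 500 mg/L, with an edgeR adjusted p of 0.909 and 0.965. The difference between the dose effects was -0.60 (SE 0.40, edgeR adjusted p = 0.960), with a 95% interval of -1.44 to 0.25. Without IAA 10 mg/L replicate 4 the value at 10 mg/L was 0.079, and without control replicate 7 the value at 500 mg/L was -0.078.

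Markers of cell types are given beside these values, and 0 of them were called at either dose against own controls. The level of Igfbp4 is set against their scores, and refitted with the stroma score, further below. Beyond that fit, the part of the markers in its changes with dose was not tested. At 10 mg/L the log2 change was above 0 for 10 of 10 endothelial genes (median 0.33), 7 of 7 leukocyte genes (0.23), 5 of 5 erythroid genes (0.40), 6 of 7 pericyte and smooth muscle genes (0.15), 5 of 6 luteal genes (1.12) and 4 of 6 stroma genes (0.03). Of the other lists, it was above 0 for 3 of 8 granulosa genes (-0.02), 1 of 7 theca genes (-0.09), 1 of 9 oocyte genes (-0.14) and 1 of 5 surface epithelium genes (-0.12). At an unadjusted p under 0.05, 8 endothelial and 2 luteal genes were higher and 1 oocyte gene was lower, beside 3.78% of all tested genes higher and 2.66% lower. At 500 mg/L it was above 0 for 6 of 10 endothelial genes (median 0.03), 0 of 7 leukocyte genes (-0.46), 5 of 5 erythroid genes (1.11), 1 of 7 pericyte and smooth muscle genes (-0.10), 1 of 6 luteal genes (-0.25) and 1 of 6 stroma genes (-0.03). At this dose it was above 0 for 4 of 8 granulosa (0.09), 5 of 7 theca (0.24), 9 of 9 oocyte (0.19) and 3 of 5 surface epithelium genes (0.07). Over all tested genes it was above 0 for 50.1% at 10 mg/L and 50.5% at 500 mg/L. At an unadjusted p under 0.05, 1 theca and 1 erythroid gene were higher at 500 mg/L and none was lower, beside 5.19% of all tested genes in either direction.

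Igfbp7 had 298, 388, 247, 458 and 487 CPM at 10 mg/L, against 396, 392, 448, 266 and 431 CPM in the controls of experiment 2. It had 329, 241, 249, 479 and 450.4 CPM at 500 mg/L, against 363, 537, 311, 417 and 264 CPM in the controls of experiment 1. Exposed and control mice spanned nearly the same range in both experiments, and the log2 changes were -0.04 (SE 0.23) at 10 mg/L and -0.11 (SE 0.23) at 500 mg/L.

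Igfbp5, a binding protein that in the rat also marks granulosa cells of atretic follicles, had 242, 368, 162, 381 and 445 CPM at 10 mg/L, against 247, 277, 241, 280.1 and 285 CPM in the controls of experiment 2. Of these exposed mice, 3 were above every control and 1 was below every control. It had 215, 269, 304, 446 and 536 CPM at 500 mg/L, against 458, 223, 205, 229 and 206 CPM in the controls of experiment 1. There 4 of 5 exposed mice were above the control median of 223 CPM, while control replicate 6, at 458 CPM, was above all but 1 of them. The log2 changes were 0.27 (SE 0.28) at 10 mg/L and 0.42 (SE 0.28) at 500 mg/L. For either dose the change was 0.34 (SE 0.19), with a 95% interval of -0.06 to 0.75, an unadjusted p of 0.0915 and an edgeR adjusted p of 0.797. No other change of the 10 genes for either dose was as large. At 500 mg/L the value was 0.22 without IAA 500 mg/L replicate 5 and 0.71 without control replicate 6, and at 10 mg/L it was 0.12 without IAA 10 mg/L replicate 5 and 0.44 without IAA 10 mg/L replicate 3.

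For Igfbp2, one of the classical IGF binding proteins, most values at 10 mg/L lay below those of the controls, without passing the test. It had 30.6, 37.1, 29.1, 43.6 and 40.0 CPM at 10 mg/L, against 43.4, 39.9, 48.3, 41.4 and 50.0 CPM in the controls of experiment 2. Of the exposed mice, 3 were below every control and 1 was above the control median. The log2 change was -0.30 (SE 0.16, unadjusted p = 0.0652, edgeR adjusted p = 0.785), with a 95% interval of -0.63 to 0.02. At 500 mg/L the mean was 44.0 ± 8.46 CPM, against 42.4 ± 9.72 CPM in the controls of experiment 1 (SD, n = 5 each), a log2 change of 0.05 (SE 0.16). The difference between the dose effects was 0.36 (SE 0.22, edgeR adjusted p = 0.953).

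Igfbp3, the main carrier of IGFs in serum, was the scarcest per kb of the binding proteins among the 10 genes. Outside the 10, Igfbp1 had a median of 0.400 CPM and Igfbp6 one of 29.4 CPM over the mice. Its mean was 14.5 ± 4.28 CPM at 10 mg/L, against 13.3 ± 1.79 CPM in the controls of experiment 2, and 14.9 ± 2.53 CPM at 500 mg/L, against 13.0 ± 4.29 CPM in the controls of experiment 1 (SD, n = 5 each). All 5 mice at 500 mg/L were above the control median of 11.9 CPM, but control replicate 7, at 19.8 CPM, was above all of them. The log2 changes were 0.12 (SE 0.21) at 10 mg/L and 0.20 (SE 0.21) at 500 mg/L.

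Pappa varied more between mice than any other of the 10 genes. It had 5.25, 16.9, 4.78, 4.95 and 2.61 CPM at 10 mg/L, against 5.29, 9.24, 11.0, 19.1 and 2.02 CPM in the controls of experiment 2. It had 5.39, 3.70, 5.67, 20.8 and 6.12 CPM at 500 mg/L, against 8.71, 8.24, 8.53, 3.27 and 2.51 CPM in the controls of experiment 1. A single mouse stood well above the rest in each of 3 sets, and the controls of experiment 1 split into 3 mice at 8.24 to 8.71 CPM and the others at 2.51 and 3.27 CPM. The log2 change was -0.44 (SE 0.59) at 10 mg/L and 0.42 (SE 0.59) at 500 mg/L. Without IAA 10 mg/L replicate 2 the first was -1.08, and without IAA 500 mg/L replicate 4 the second was -0.27. The difference between the dose effects was 0.86 (SE 0.84, edgeR adjusted p = 0.987).

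**Figure D3:**
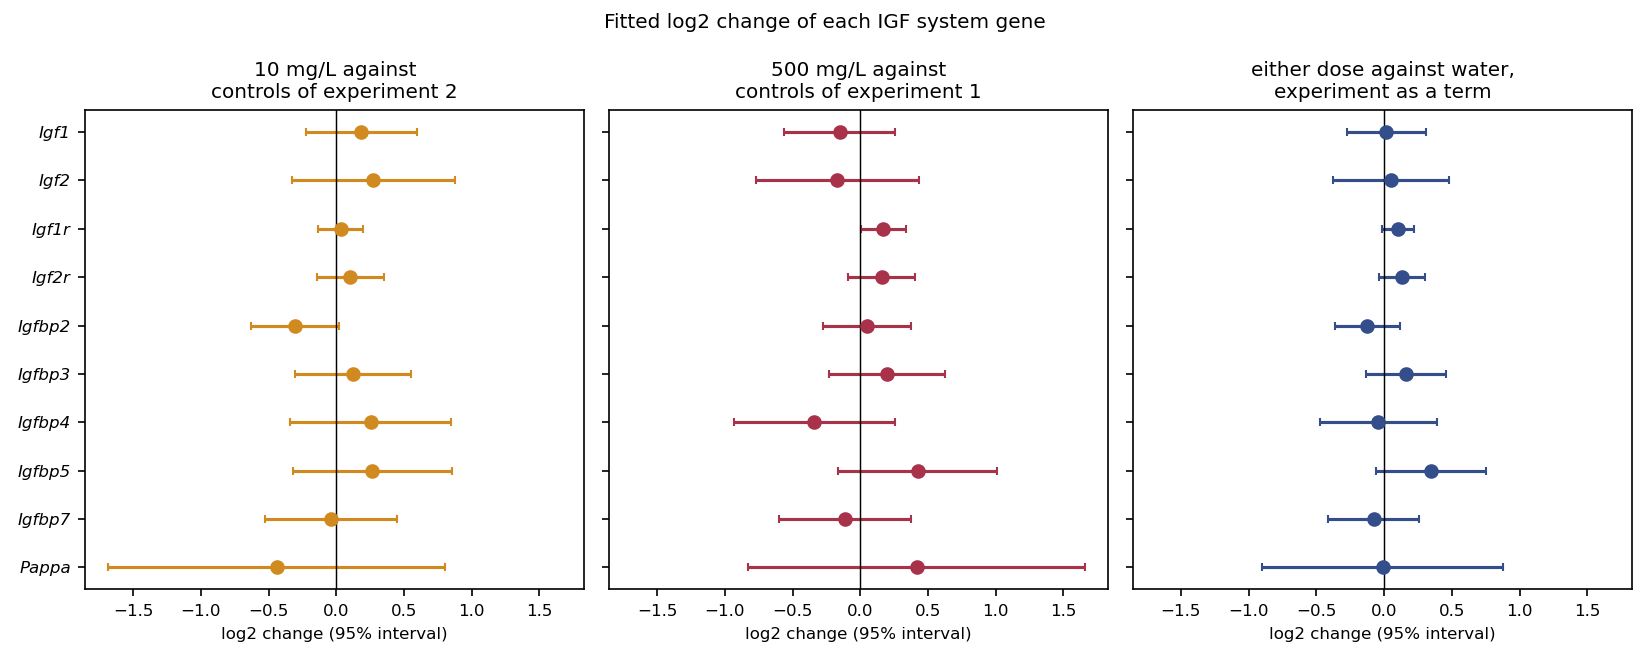
Log2 change of each gene with its 95% interval at 10 mg/L and at 500 mg/L, each against controls of its own experiment, and for either dose against water with experiment as a term. The intervals include 0 except for Igf1r at 500 mg/L (0.0025 to 0.34), and that of Pappa is the widest.

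The comparisons with all 10 controls share those controls and are therefore not independent of each other or of the comparisons within experiments. Of the 10 genes, 0 were called at 10 mg/L, beside 0.00561% of all tested genes, and 0 at 500 mg/L, beside 0.0112%. Between 500 and 10 mg/L, where dose and experiment cannot be told apart, 0 of 10 were called, beside 0.0112%. At an unadjusted p under 0.05 these 3 comparisons held 0, 1 (Igf1r) and 0 of the 10, beside 6.22%, 8.69% and 10% of all tested genes. DESeq2 called 0.0273%, 0.832% and 1.07% of the genes it tested in them and limma-voom 0% in each, with none of the 10 among them. Between the doses, Igfbp2 differed by 0.28 (SE 0.15, unadjusted p = 0.0768, edgeR adjusted p = 0.552) and Igfbp4 by -0.37 (SE 0.28, edgeR adjusted p = 0.699) on the log2 scale, 500 over 10 mg/L. The difference between the 2 dose effects, each taken against its own controls, gave 0 of 10 beside 0% of all tested genes, and at an unadjusted p under 0.05 also 0 of 10, beside 5.41%. DESeq2 called 0.0737% of the genes it tested there and limma-voom 0%, with none of the 10 among them.

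In the authors' deposited table, none of the 10 genes passed a false discovery rate of 0.05 either, where 0.611%, 1.26% and 1.59% of the 18169 listed genes did at 10 mg/L, at 500 mg/L and between the doses. The smallest FDR of the 10 genes in the authors' deposited table belonged to Igfbp4. Its signed linear fold change in the authors' deposited table was -1.22 between 500 and 10 mg/L with an FDR of 0.0990, and -1.18 at 500 mg/L against controls with an FDR of 0.109. For Igfbp5 at 500 mg/L, the authors' deposited table gives a fold change of 1.31 and an FDR of 0.141.

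The 10 genes differed widely in how much they varied between mice of a set. The biological coefficient of variation, the spread left after counting error, was 10.1% for Igf1r and 14.0% for Igf2r, beside a median of 17.8% over all tested genes. Igfbp2 stood at 17.8%, Igf1 at 21.9%, Igfbp3 at 23.5% and Igfbp7 at 25.8%. Igfbp5 at 30.7%, Igfbp4 at 31.1% and Igf2 at 32.3% were more variable. Pappa, at 63.1%, was above 96.2% of tested genes. The receptors were thus the steadiest of the 10 and the protease the least steady.

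Between mice, Igfbp4 and Igfbp7 varied together. Over the 20 mice, with log2 CPM centred within group and experiment, Pearson's r was 0.86 and Spearman's rho 0.87 (100000-resample permutation test within sets, two-sided, adjusted p = 0.0018 and 0.0023 over 45 pairs). It was 0.92 in experiment 1 and 0.77 in experiment 2, and 0.81 without the 2 mice farthest from the median of Igfbp4. This pair passed with each mouse left out in turn. Igfbp3 with Igfbp4 (r = 0.75, rho = 0.72, permutation adjusted p = 0.0401 and 0.0531) and Igf2 with Igfbp7 (r = 0.65, rho = 0.67, permutation adjusted p = 0.0464 and 0.0531) passed by Pearson's r and not by Spearman's rho. Within experiments 1 and 2, r was 0.70 and 0.84 for Igfbp3 with Igfbp4 and 0.58 and 0.78 for Igf2 with Igfbp7. Without the 2 farthest mice it was 0.70 and 0.71 for these pairs. With 1 mouse left out, they passed in 9 and 4 of 20 cases. Igfbp4 with Igfbp5 had an r of 0.67 (rho = 0.72, permutation adjusted p = 0.121 and 0.0538) and did not pass. Within experiments 1 and 2 it was 0.53 and 0.90. Igfbp2 with Igfbp4 had an r of 0.35, with 0.08 and 0.91 within experiments 1 and 2. In experiment 2 these, like Igfbp3 with Igfbp4 (0.84), were above Igfbp4 with Igfbp7 (0.77). The ligand Igf1 and the receptor Igf1r had an r of 0.19.

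**Figure D4:**
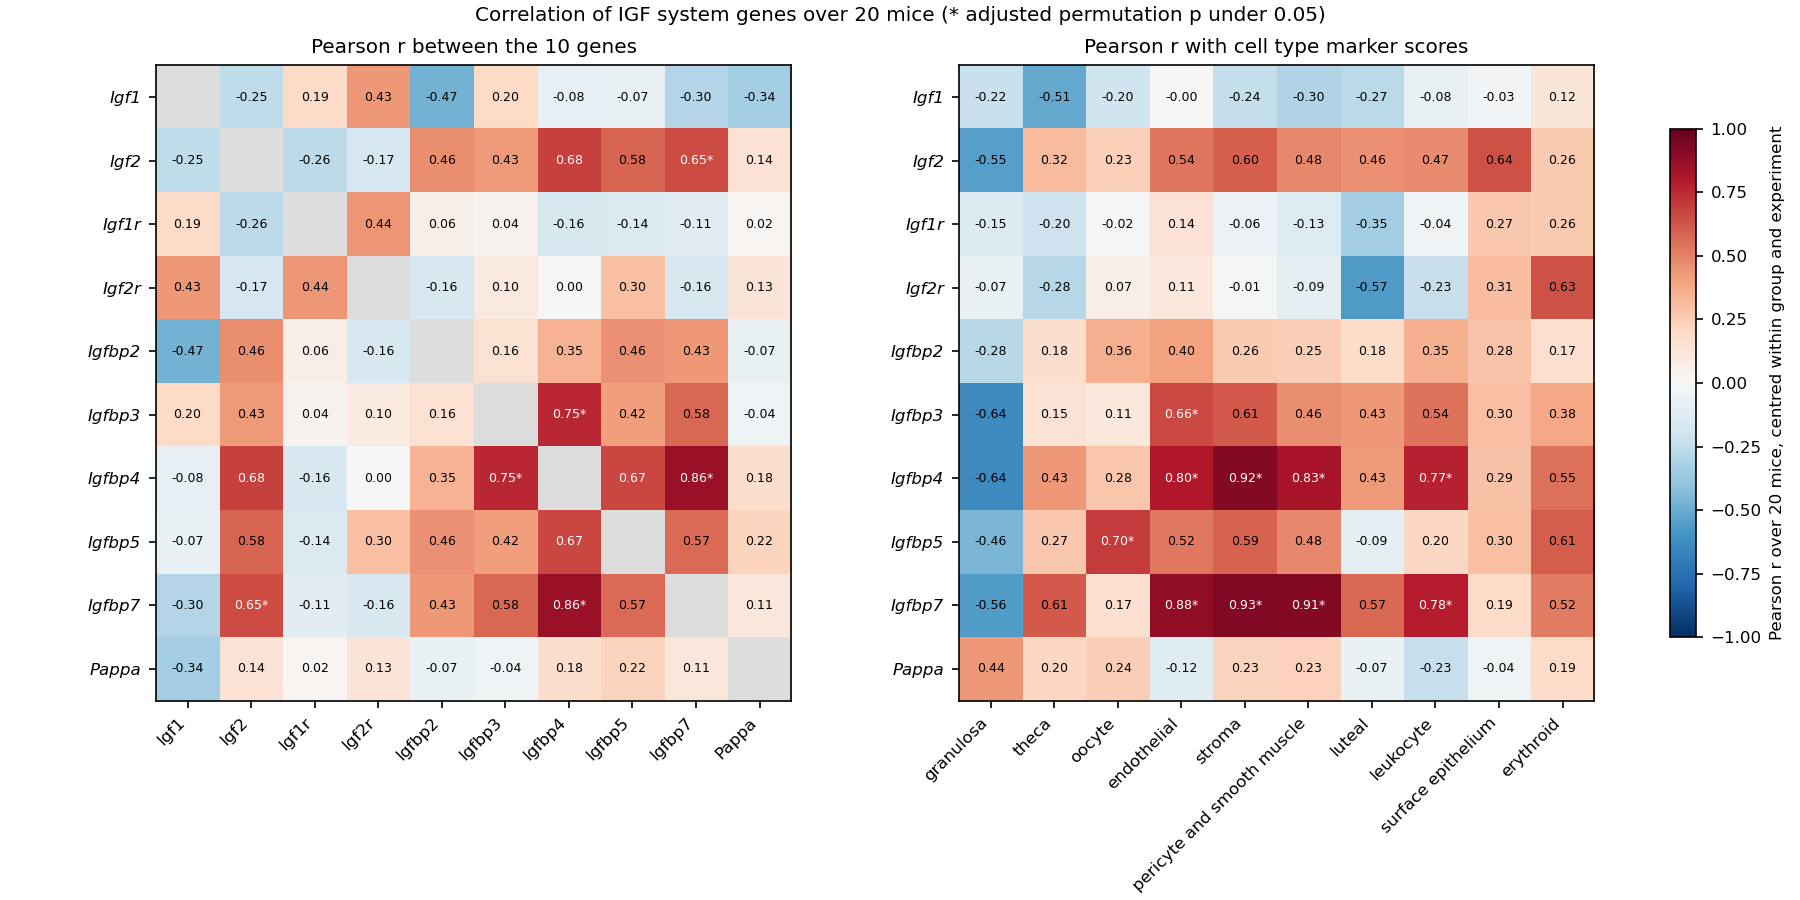
Pearson's r over 20 mice, centred within group and experiment, between the 10 genes (left) and of each gene with 10 cell type marker scores (right), where an asterisk marks an adjusted permutation p under 0.05. Igfbp4 and Igfbp7 are the pair with the highest r, 0.86, and both go with the stroma score, at 0.92 and 0.93.

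The levels of Igfbp4 and Igfbp7 also went with markers of some, but not all, cell types outside the granulosa layer. Scores were the mean log2 CPM of each marker list, 100 relations were computed, and p-values are from the same permutation test, adjusted over the 100. With the stroma score (Dcn, Lum, Col1a1, Col1a2, Pdgfra and Tcf21), r was 0.93 for Igfbp7 (rho = 0.96, permutation adjusted p = 0.0010) and 0.92 for Igfbp4 (rho = 0.93, permutation adjusted p = 0.0010). Within experiments 1 and 2 these were 0.95 and 0.90 for Igfbp7 and 0.99 and 0.79 for Igfbp4, and without the 2 farthest mice 0.93 and 0.86. The r with the pericyte and smooth muscle score was 0.91 for Igfbp7 and 0.83 for Igfbp4. With the endothelial score it was 0.88 and 0.80, and with the leukocyte score 0.78 and 0.77 for the same genes. All 8 passed by Pearson's r, and 7 of the 8 by Spearman's rho. The exception was Igfbp4 with the leukocyte score, which also failed to pass without control replicate 7 (permutation adjusted p = 0.0722). No other score passed for these genes by either measure. For Igfbp7 and Igfbp4, r was 0.61 and 0.43 with the theca score and 0.57 and 0.43 with the luteal score. It was 0.52 and 0.55 with the erythroid, 0.19 and 0.29 with the surface epithelium and 0.17 and 0.28 with the oocyte score.

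The remaining 2 relations that passed by Pearson's r lost that with single mice left out. Igfbp5 with the oocyte score had an r of 0.70 (rho = 0.65, permutation adjusted p = 0.0402 and 0.0581), which was 0.64 and 0.77 within experiments 1 and 2, was 0.55 without the 2 farthest mice, and passed in 10 of 20 cases. Igfbp3 with the endothelial score had an r of 0.66 (rho = 0.70, permutation adjusted p = 0.0498 and 0.0338), 0.73 and 0.59 within experiments 1 and 2 and 0.80 without the 2 farthest mice, and passed in 7 of 20 cases. With the stroma score, Igfbp3, Igf2, Igfbp5 and Igfbp2 had an r of 0.61, 0.60, 0.59 and 0.26, and none passed. Within experiments 1 and 2, r was 0.71 and 0.44 for Igfbp3 and 0.59 and 0.62 for Igf2. It was 0.46 and 0.86 for Igfbp5 and 0.03 and 0.82 for Igfbp2. Igf1r, Igf2r and Igf1 had an r of -0.06, -0.01 and -0.24 with the stroma score, and Pappa one of 0.23. For Igf1r this was -0.46 in experiment 1 and 0.50 in experiment 2. With the granulosa score no relation passed by Pearson's r. The lowest were those of Igfbp3 and Igfbp4, both at -0.64, with Igfbp7 at -0.56 and Igf2 at -0.55. That of Igfbp4 did not pass by Spearman's rho (rho = -0.52, permutation adjusted p = 0.0628 and 0.156). That of Igfbp3 passed by Spearman's rho (rho = -0.70, permutation adjusted p = 0.0628 and 0.0338). Igfbp5 with the erythroid score also passed by Spearman's rho and not by Pearson's r (r = 0.61, rho = 0.71, permutation adjusted p = 0.0794 and 0.0430), with an r of 0.58 and 0.64 within experiments 1 and 2 and 0.65 without the 2 farthest mice.

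**Figure D5:**
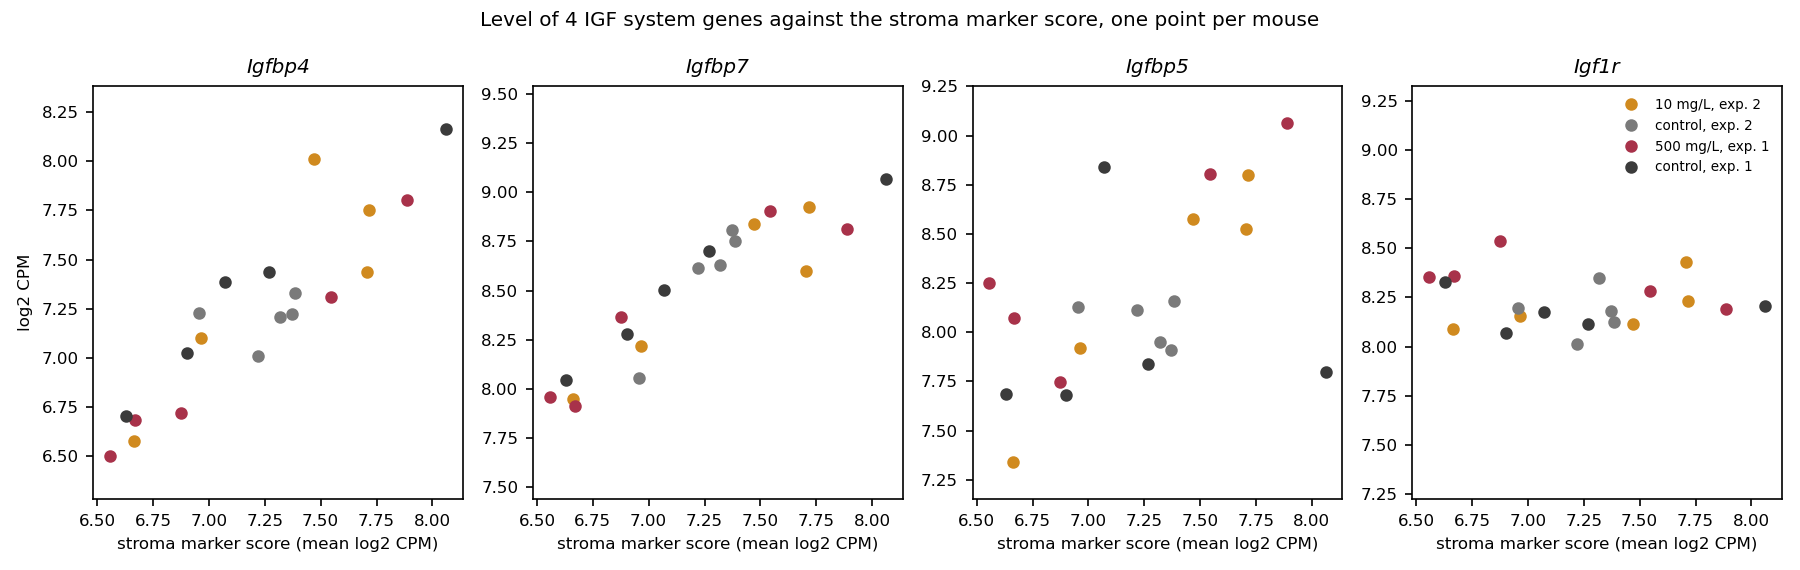
Log2 CPM of Igfbp4, Igfbp7, Igfbp5 and Igf1r against the stroma marker score of the same mouse, with an equal span on each vertical axis. After centring, r with the score is 0.92 for Igfbp4 and 0.93 for Igfbp7, whereas Igf1r has an r of -0.06. Within experiments 1 and 2, r was 0.99 and 0.79 for Igfbp4 and 0.95 and 0.90 for Igfbp7. That of Igf1r was of opposite sign, at -0.46 in experiment 1 and 0.50 in experiment 2.

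With the stroma score as a covariate, a fit added after the data had been seen, the coefficient of variation of Igfbp4 was 13.7%, against 31.1% without it, and that of Igfbp7 11.4%, against 25.8%. That of Igfbp5 was 26.0%, against 30.7%, and that of Igf1r 10.0%, against 10.1%. In this fit the log2 change of Igfbp4 was 0.14 (SE 0.12) at 10 mg/L and -0.27 (SE 0.12, unadjusted p = 0.0364, edgeR adjusted p = 0.776) at 500 mg/L. For Igf1r at 500 mg/L the unadjusted edgeR p in this fit was 0.0517. At 500 mg/L against own controls, 1093 of all 17810 tested genes had an unadjusted p under 0.05 in it. The 10 genes again gave 0 calls in each of the 8 comparisons. Over all tested genes this fit called 66 between the control sets and at most 2 in any other comparison.

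The transcripts closest to each gene in their pattern over the 20 mice were sought among 13185 genes with a mean of at least 2 CPM, as a description. For Igf1r the closest was Insr, the insulin receptor gene, with an r of 0.90. For Igfbp4 they were Kdr, Anpep and Il13ra1, each with an r of 0.95, and Kdr is also on the endothelial list. For Igfbp7 they were Egflam, Nr2f2 and Cnrip1, each with an r of 0.96, and Nr2f2 is also on the theca list. The closest to Igfbp5 was Kcnq1 (r = 0.93), to Igf1 Ago1 (r = 0.89), to Igf2r Ganab (r = 0.87) and to Igfbp3 Marchf6 (r = 0.85). Pappa with Tbc1d8 (r = 0.82), Igf2 with Sema3f (r = 0.79) and Igfbp2 with Bcan (r = 0.75) had the loosest neighbours. All 20 libraries share 1 dissection scheme and 1 sequencing lane.

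Of 53 other genes of the pathway, 47 were tested, and none was called in any of the 8 comparisons. They fell into binding proteins and proteases (8 of 9 tested), receptors and adaptors (8 of 10), PI3K-AKT-FOXO (19 of 19), RAS-MAPK (8 of 8) and RNA binding and imprinting partners (4 of 7). Igfbpl1, Insrr, Irs4, Igf2bp1, Igf2os and Ins2 were too low to test. For either dose, 2 were higher and 1 lower at an unadjusted p under 0.05, where 3.45% of all tested genes were higher and 3.35% lower. At 500 mg/L against all controls, 4 were lower and 0 higher, where 4.18% and 4.51% of all tested genes were. Among these were Hras, a small GTPase, at -0.20 (SE 0.08), the kinase Mapk3 at -0.21 (SE 0.09) and the kinase Map2k2 at -0.12 (SE 0.05) on the log2 scale. The edgeR adjusted p of these 3 ran from 0.477 to 0.541. Against the controls of experiment 1 the same 3 were at -0.21, -0.16 and -0.07, and 1 of them, Hras, had an unadjusted p under 0.05 (p = 0.0393, edgeR adjusted p = 0.954). Of all 47, 2 were higher and 3 lower at that p in this comparison, beside 5.19% of all tested genes in either direction. Among binding proteins and proteases, 2 of 8 were lower and 0 higher, with a median log2 change of -0.20.

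Among the pathway genes at 10 mg/L against all controls, the 4 with the smallest p were the kinase Map2k1 at 0.23 (SE 0.08), Tsc2, an inhibitor of mTOR signalling, at 0.11 (SE 0.05), Hras at -0.18 (SE 0.08) and Insr at 0.18 (SE 0.08) on the log2 scale, with edgeR adjusted p from 0.740 to 0.779. Against the controls of experiment 2 these were at 0.31, 0.07, -0.17 and 0.12, and 1 of them, Map2k1, had an unadjusted p under 0.05 (p = 0.0042, edgeR adjusted p = 0.616). Of all 47, 3 were higher and 1 lower in this comparison, beside 3.78% and 2.66% of all tested genes. Among binding proteins and proteases, 1 of 8 was higher and 1 lower, with a median of 0.17. For the difference between the dose effects their median was -0.59, with 1 of 8 above 0 and 1 lower at that p. For either dose, Hras was at -0.19 (SE 0.07), Insr at 0.16 (SE 0.06), Airn at 0.29 (SE 0.13) and Map2k1 at 0.15 (SE 0.07), with edgeR adjusted p from 0.630 to 0.755. Airn is the antisense transcript that overlaps Igf2r in mouse, and whether the authors' quantification used strand is not given in the sources used here, so values of Airn and Igf2r are uncertain to that extent. Htra1, a protease that cuts several binding proteins, had a median of 1034 CPM over the mice and a log2 change of -0.04 (SE 0.10) for either dose.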

How the data were processed

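Poly(A)-selected, stranded libraries from 20 mice, 1 library per mouse, were sequenced from 1 end. Salmon 1.2.0 quantified reads, with FastQC 0.11.8, limma, edgeR, R 4.1.2 and the mouse build GRCm39 also listed, per the submitters' processing notes. Unscaled estimated counts of each gene make up the deposited count table, whose headers give the experiment of each mouse. Per the file headers, the authors' table of results gives average log2 expression, p-values, signed fold changes and a score (an F statistic).

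Counts were rounded to whole numbers and analysed in R 4.3.3 with edgeR 4.0.16: expression filter by group, TMM factors, robust quasi-likelihood fits to all 20 mice, two-sided F-tests, and Benjamini-Hochberg adjustment at 0.05 over the 17810 tested genes. The fits had a mean per group, a mean per group and experiment, or experiment and exposure as terms. SE comes from the F statistic, SD is over mice on CPM. The fits were tested on simulated data (500 mg/L against all controls, 17600 genes). There 84% of genes changed by 1 on the log2 scale and 100% of those changed by 2 were called, with 4 false calls. Every simulated gene had the same spread between mice, and no difference between experiments was simulated. The coefficient of variation of the 10 genes ran from 10.1% (Igf1r) to 63.1% (Pappa), so these shares do not give the power for each of them. The comparisons of each dose with controls of its own experiment were not simulated, so power in them was not tested.

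Log2 CPM for relations used a prior count of 2. Lengths are from GENCODE M21 (GRCm38), another build than that of the counts. DESeq2 1.42.0, limma-voom (limma 3.58.1), other scalings and filters, the groups compared alone, a replicate block, and each mouse left out in turn were the alternatives. The 10 genes, the pathway and marker lists and the tests were chosen with earlier results of these data known. All 10 genes are named; other pathway genes were named by the 4 smallest p in 3 comparisons (1 of these genes is not reported here), and neighbours by the 3 highest correlations. Spread between mice, not counting error, limited precision at 39.9 M to 67.5 M counts per library (M for mega). No library was a copy of another: within groups the chi-square over genes, divided by their number, was 22.7 to 157.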

Additional observations from a re-analysis of the deposited data

Results flagged for a closer look

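In 30 sets of values (10 genes in 3 groups), 8 values, from 7 mice, stood apart from the rest of their group by Dixon's test at the 95% level, which by chance flags about 1 set in 20. For Igf1, IAA 500 mg/L replicate 2 had 455.4 CPM and control replicate 10 had 435.1 CPM. The first is also the deepest library, at 67.5 M counts (M for mega), and without it the log2 change of Igf1 at 500 mg/L against all controls was -0.11, against 0.14 with it. For Pappa, the high mice were IAA 10 mg/L replicate 2 at 16.9 CPM, IAA 500 mg/L replicate 4 at 20.84 CPM and control replicate 4 at 19.12 CPM, so each group held 1. For Igfbp4 and Igfbp3, control replicate 7 was high, at 286.8 and 19.82 CPM, and for Igfbp5 control replicate 6, at 457.8 CPM.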

How the results depend on the processing

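None of the 10 genes was called in any of 2310 tests over 8 comparisons and all settings run, left-out mice included; the smallest adjusted p was 0.0776 (Igf1 between the control sets, DESeq2). DESeq2 gave no adjusted p for Igf2 and Pappa at 500 mg/L against all controls, nor for Igf2 between the doses. Of 336 refits of the 44 log2 changes under another scaling, filter, tool, choice of groups, covariate or block, 2 changed sign. Upper-quartile scaling gave 0.0048 for Pappa at either dose, against -0.01.

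Same-numbered mice did not vary together (correlations from -0.10 to 0.14), so the replicate numbers do not pair the mice. With the replicate number as a block, Igf1 was at 0.20 for 10 mg/L against all controls, against -0.18. Control replicates 6 to 10 have no partner in this fit and add nothing to it, so it sets both doses against the controls of experiment 2. For either dose no block fit was made, since mice at 500 mg/L share no number with controls of their own experiment. The block called 0 of the 10 genes in each of the 4 comparisons where it could be fitted, and over all genes 17 at 500 mg/L and 8 between the doses, against 2 and 2. Over all genes, DESeq2 called 86 at 500 mg/L, 123 between the doses and 192 between the control sets, against 2, 2 and 28 by edgeR.

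With each mouse left out in turn, 43 of 880 refits changed sign, and 33 of the 44 log2 changes moved by over 1.5 times in at least 1 refit. At 500 mg/L against own controls Igf2r ran from 0.069 to 0.22 and Igfbp3 from 0.074 to 0.40, and at 10 mg/L Igf2r ran from 0.015 to 0.17. At 10 mg/L against own controls Igf1r ran from -0.022 to 0.084, Igfbp3 from -0.060 to 0.21, Igfbp7 from -0.15 to 0.083 and Pappa from -1.08 to 0.010. At 500 mg/L against own controls Igf2 ran from -0.37 to 0.036, Igfbp2 from -0.027 to 0.15, Igfbp7 from -0.26 to 0.046 and Pappa from -0.27 to 0.61. For either dose Igf1 ran from -0.083 to 0.10, Igf2 from -0.070 to 0.17, Igfbp4 from -0.15 to 0.10 and Pappa from -0.36 to 0.22, and Igf1 at 500 mg/L against all controls from -0.11 to 0.25. The cause was not tested. The 3 relations between members became 1 to 5: they were 1 without control replicate 2, IAA 10 mg/L replicate 1, 3, 4 or 5, or any 1 mouse at 500 mg/L, and 5 without control replicate 6. The 10 relations with marker scores became 9 to 13. Spread between mice limits the small changes: against its own controls, the 95% interval for Pappa was -1.68 to 0.80 at 10 mg/L and -0.83 to 1.66 at 500 mg/L.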
